A study of Homo sapiens with 6 samples.

Results

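The estrogen-related receptor (ERR) family comprises ESRRA, ESRRB and ESRRG, which encode ERR alpha, beta and gamma. Its members were found as the probe sets whose single gene symbol in the platform annotation is one of these 3 names, which gave 5 of the 22215 probe sets that are not array controls, and 3 of 11963 named genes. ESRRG and ESRRA were read by 2 probe sets each and ESRRB by 1. Each probe set was read on 6 arrays of total RNA, 3 from LCCTam and 3 from SUM44. LCCTam is a tamoxifen-resistant variant of SUM44, sampled at passages 8, 9 and 10 and cultured in the presence of 500 nM 4-hydroxytamoxifen. SUM44 is a cell line from an invasive lobular breast carcinoma, labelled as positive for estrogen and progesterone receptors, sampled at passages 74, 75 and 76 and cultured without the drug. Both lines were grown in the same medium, named SFIH (Ham's F12). The resistant line, its passage number and the drug cannot be told apart in this design. The study's title names ERR gamma, so the ESRRG values are not independent evidence for its choice.

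The ERRs are orphan nuclear receptors. They bind DNA through a zinc-finger domain closely related to that of the estrogen receptors, but they do not bind estradiol, and their activity depends on coactivators such as PGC-1 alpha rather than on a known hormone. Their best known targets are genes of mitochondrial respiration and fatty acid oxidation. 4-Hydroxytamoxifen, the active metabolite of tamoxifen, binds ERR beta and ERR gamma and acts on them as an inverse agonist, and it does not act in this way on ERR alpha.

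The values are log2 expression values, on which a step of 1 is a 2-fold change, and all differences are LCCTam minus SUM44. The 10 luminal epithelial markers averaged 11.36 to 11.69 on the LCCTam arrays and 11.67 to 11.88 on the SUM44 arrays. The 10 fibroblast markers averaged 5.18 to 5.26 in LCCTam and 5.21 to 5.36 in SUM44, and 9 leukocyte and endothelial markers 5.13 to 5.23 in LCCTam and 5.10 to 5.21 in SUM44. LCCTam passage 10 stood apart in its control probe sets: its actin 3' minus 5' difference was 1.92, against 0.90 to 1.15 on the other 5 arrays. The data hold no detection calls, and these are bulk samples, in which fewer cells of a kind and less RNA per cell cannot be told apart. The labels do not tell whether the passages are independent cultures, so the p-values cover the variation among these 6 arrays, which may be technical.

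ESRRG was the member that rose in LCCTam, on both of its probe sets. Probe set 207981_s_at, the brighter, read 8.60, 9.19 and 9.55 in LCCTam at passages 8, 9 and 10, against 7.10, 6.94 and 7.01 in SUM44 at passages 74, 75 and 76. Every LCCTam array lay above every SUM44 array, and the gap between the lowest LCCTam and the highest SUM44 value was 1.50. The mean difference was 2.10 (95% confidence interval 1.57 to 2.63), which is 4.28-fold (2.96-fold to 6.18-fold), with an adjusted p of 0.00432 in the limma fit of all probe sets. Of the 22215 probe sets, 22 had a larger increase. This probe set stood between the 84.6 and the 92.4 percentile of all probe sets on the LCCTam arrays and between the 65.0 and the 66.9 percentile on the SUM44 arrays. In none of the 11 alternative settings did its adjusted p exceed 0.0366, and its difference lay between 1.71 and 2.36.

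The other ESRRG probe set, 209966_x_at, read 6.65, 6.74 and 7.34 in LCCTam and 5.91, 5.75 and 5.50 in SUM44 at the same passages. The lines again did not overlap, with a gap of 0.73. The difference was 1.19 (interval 0.71 to 1.67), or 2.28-fold, with limma adjusted p = 0.0191. That call was lost when 1 array was left out in 3 of 6 cases: adjusted p = 0.0530 without LCCTam passage 9, 0.0914 without SUM44 passage 75 and 0.0553 without SUM44 passage 76, while the difference stayed between 0.97 and 1.32. The probe set's suffix marks probes that can cross-hybridize, and 207981_s_at carries one for probes shared by several transcripts. Each probe set responds with its own slope, so the sizes of the 2 differences are not 2 estimates of the same number.

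Within LCCTam the ESRRG values spread more than within SUM44. The range on 207981_s_at was 0.95 in LCCTam and 0.17 in SUM44, and on 209966_x_at it was 0.70 in LCCTam and 0.41 in SUM44. LCCTam passage 10, the array with the larger actin 3' minus 5' difference, was the highest on both. Without it the differences were 1.88 (adjusted p = 0.0043) and 0.97 (adjusted p = 0.0101); the part of that array's RNA quality in the values was not tested. Across the 6 arrays the probe sets had a Pearson's r of 0.97, a value that includes the difference between the lines; the r of their deviations from the line means was 0.78. Such agreement was not particular to ESRRG. The deviations of 209966_x_at had an r of 0.93 with those of ESRRA 203193_at and 0.90 with those of ESRRB. Those of 207981_s_at had 0.52 and 0.84 with the same probe sets. With ESRRA 1487_at the r was -0.51 for 209966_x_at and -0.40 for 207981_s_at. All these r values are descriptions from probe sets read on the same arrays.

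**Figure D1:**
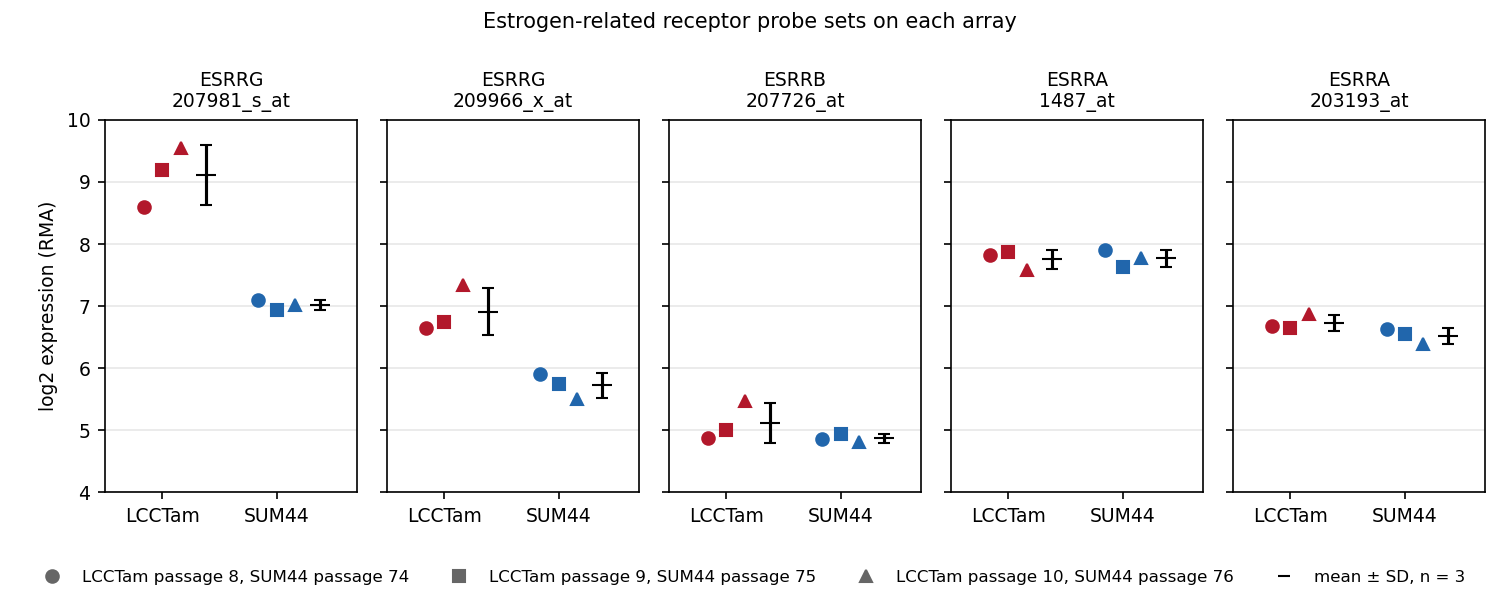
Log2 expression (vertical axis) of the 5 ERR probe sets on each LCCTam array (red, left in each panel) and each SUM44 array (blue, right), with the mean and SD of each line (n = 3) in black; symbol shapes mark the passages and pair no arrays. The LCCTam points lie above all SUM44 points for both ESRRG probe sets, the lines overlap for ESRRB and for ESRRA 1487_at, and for ESRRA 203193_at they are separated by 0.01.

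The RefSeq promoter table (GRCh38.p14) lists 8 start-site windows for ESRRG on chromosome 1, 3 for ESRRB on chromosome 14 and 1 for ESRRA on chromosome 11, each of 250 bases before and 50 bases from an annotated start. They are shown because ERRs and estrogen receptors recognise variants of the half-site AGGTCA. All windows were searched on both strands for TNAAGGTCA, the extended half-site preferred by ERRs, for AAGGTCA and AGGTCA, which are nested within it, for the estrogen response element (GGTCA and TGACC with 3 bases between) and for the AP-1 site TGANTCA. The AGGTCA half-site was present in 2 of the 8 ESRRG windows, against 13.8% of all 35116 windows in the table, and AAGGTCA in 1 of the 8, against 3.92%. None of the 12 windows of the family held TNAAGGTCA (0.951% of all windows), the estrogen response element (0.057%) or TGANTCA (7.71%). The half-sites lie in the windows below, printed 5' to 3' on the minus strand up to the base before the start. Capitals mark the match, which begins 61 bases before the start in the first and 234 bases before it, in the reverse orientation, in the second. A match is a stretch of letters and not a shown binding site, and the arrays do not tell which start was used.
ESRRG chr1:217076993-217077242: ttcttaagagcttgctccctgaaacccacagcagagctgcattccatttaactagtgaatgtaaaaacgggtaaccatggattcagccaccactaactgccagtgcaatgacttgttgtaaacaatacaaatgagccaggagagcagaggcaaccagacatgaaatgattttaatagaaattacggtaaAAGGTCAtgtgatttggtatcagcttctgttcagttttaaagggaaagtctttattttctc
ESRRG chr1:217078288-217078537: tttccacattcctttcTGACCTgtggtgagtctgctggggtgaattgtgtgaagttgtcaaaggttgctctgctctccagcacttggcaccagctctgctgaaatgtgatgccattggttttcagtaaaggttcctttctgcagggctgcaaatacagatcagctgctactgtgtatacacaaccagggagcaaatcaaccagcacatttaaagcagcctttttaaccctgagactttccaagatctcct

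ESRRB, known for its role in pluripotent stem cells, did not pass the test. Its probe set 207726_at read 4.87, 4.99 and 5.47 in LCCTam and 4.85, 4.94 and 4.80 in SUM44. LCCTam passage 10 was the highest value and the lines overlapped. The difference was 0.25 with an interval of -0.13 to 0.62, or 0.915-fold to 1.54-fold (limma adjusted p = 0.417), and it was 0.067 without LCCTam passage 10 (adjusted p = 0.695). The probe set was dim, between the 26.9 and the 39.9 percentile of the arrays, and these values do not tell whether ESRRB was expressed.

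ESRRA, the member best known for control of energy metabolism, did not pass on either probe set. Probe set 1487_at read 7.82, 7.87 and 7.57 in LCCTam and 7.91, 7.63 and 7.77 in SUM44, so the lines overlapped throughout. The difference was -0.016 with an interval of -0.29 to 0.26, or 0.82-fold to 1.19-fold (limma adjusted p = 0.955). Probe set 203193_at read 6.67, 6.64 and 6.87 in LCCTam and 6.63, 6.55 and 6.38 in SUM44. These values did not overlap, by a gap of 0.01, and the difference was 0.21 (interval -0.04 to 0.46, limma adjusted p = 0.309). The direction of 1487_at depended on the setting: it was 0.10 after quantile normalization, 0.11 with array weights, 0.074 without LCCTam passage 10 and 0.054 without SUM44 passage 74. The intervals of the 2 probe sets reach 1.19-fold and 1.37-fold upward.

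Of the 5 ERR probe sets, 2 passed an adjusted p of 0.05, both ESRRG and both higher, where 6.73% of all probe sets passed, 1.56% higher and 5.16% lower. Over all probe sets that split was 347 higher and 1147 lower, and after quantile normalization 727 higher and 967 lower. The LCCTam values lay entirely above the SUM44 values for 3 of the 5, against 13% of all probe sets. The selection in the design text (2-fold, unadjusted p under 0.05, both means at least log2 of 10) took both ESRRG probe sets and none of ESRRA or ESRRB, against 2.04% of all probe sets. The difference between the genes' shifts was taken within each array. ESRRG minus ESRRA on the brighter probe sets changed by 2.11, with 0.78, 1.33 and 1.98 in LCCTam and -0.80, -0.70 and -0.76 in SUM44. On the dimmer probe sets the change was 0.98, and ESRRG against ESRRB gave 1.85 and 0.94. All 4 differences were higher on every LCCTam array than on any SUM44 array, with an exact two-sided permutation p of 0.1 each, the smallest that 3 arrays against 3 allow, so none can pass 0.05. The ESRRB and ESRRA shifts differed by 0.26 and 0.04 (exact permutation p = 0.5 and 1).

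Among nuclear receptor genes ESRRG had the largest increase. In a list of 45 other receptors 36 were measured, 0 rose and 3 fell, beside 1.98% higher and 5.58% lower of all genes at 1 probe set each; leaving out 1 array gave from 1 to 4 passing, the single one without LCCTam passage 8 or 9 or SUM44 passage 74 or 75. After ESRRG at 2.10 the next was RXRA, which encodes a partner of many nuclear receptors, at 0.36 (adjusted p = 0.199). ESRRB took place 8 and ESRRA place 28 among the 39. NR3C2, the mineralocorticoid receptor gene, at -1.0 and NR1D2, a clock receptor, at -0.91 passed with adjusted p = 0.0346 and 0.0335, and they lost the call in 5 of 11 and 4 of 10 alternative settings, with adjusted p up to 0.128 and 0.146 without SUM44 passage 75. NR2F1, named after its values were seen, had a larger difference of -1.44 without passing (limma adjusted p = 0.0676). Its LCCTam values, which were dim, all lay below its SUM44 values. The list's median was 0.04, against 0.02 for all genes.

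At the other end of the order was ESR1, which encodes estrogen receptor alpha. Its brightest probe set read 11.14, 10.94 and 11.17 in LCCTam and 12.49, 12.79 and 12.93 in SUM44, a difference of -1.65 (limma adjusted p = 0.00172). Of its 9 probe sets 5 passed, all lower, and 4 did not, with differences between -1.65 and -0.04. The ESRRG and ESR1 shifts were opposite in sign and differed by 3.75 on the log2 scale, on probe sets that each respond with their own slope. Both genes separated the lines, in opposite directions. The exact permutation p of 0.1, the smallest possible, was fixed by that and adds no support. ESR2, which encodes estrogen receptor beta, did not pass on any of its 5 probe sets, with differences between -0.01 and 0.20. PGR, which encodes the progesterone receptor and is induced through estrogen receptor alpha, differed by 0.0021 (interval -0.17 to 0.17), with the dim values 3.85, 3.86 and 3.86 in LCCTam and 3.88, 3.80 and 3.88 in SUM44. Its values, on 1 probe set, lay between the 4.65 and the 6.18 percentile of the arrays. SUM44 is labelled as positive for that receptor, and values this dim do not tell whether PGR was expressed or changed.

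**Figure D2:**
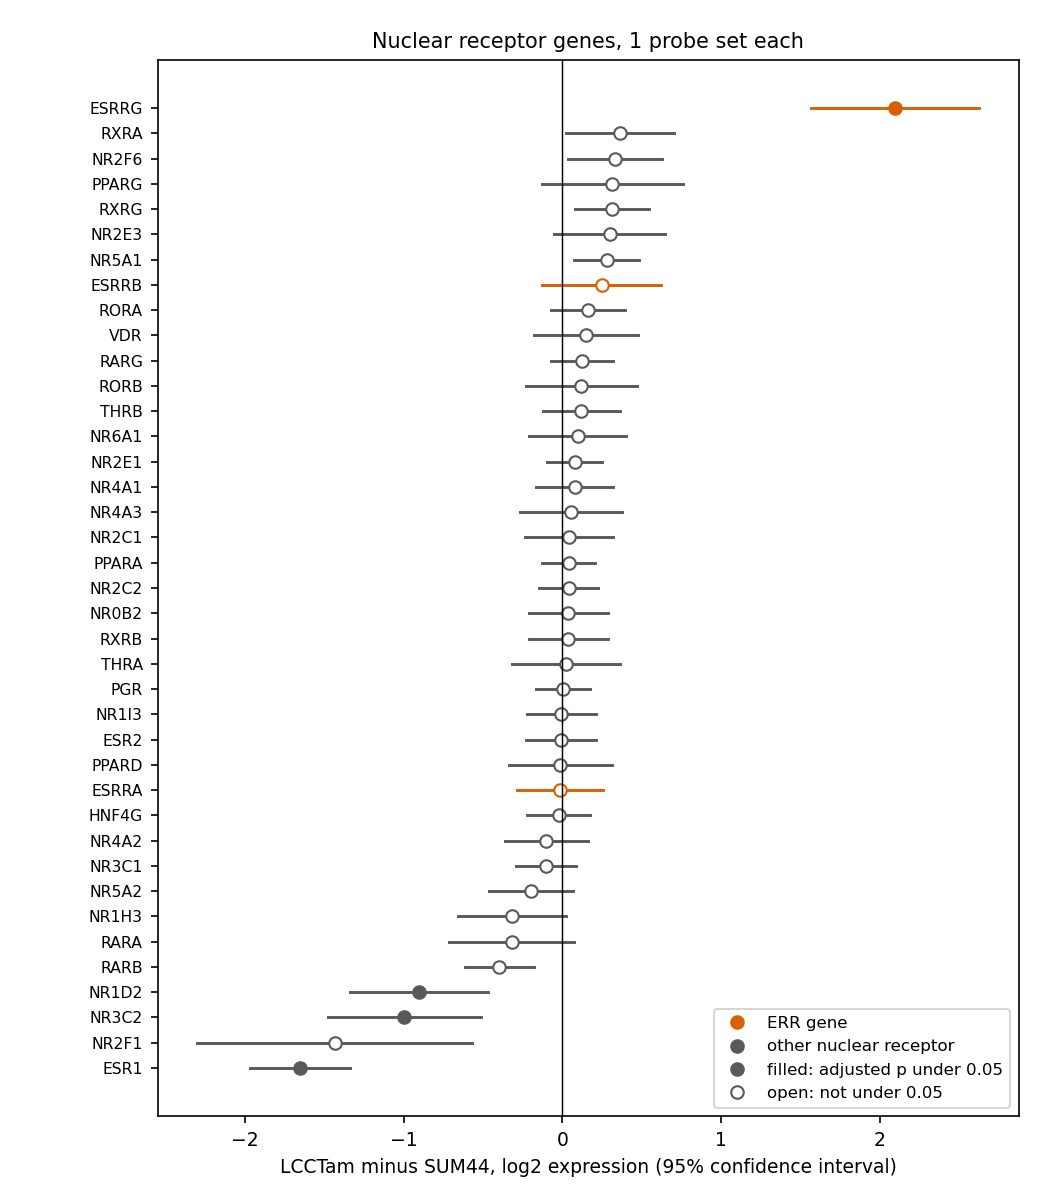
Differences in log2 expression (horizontal axis, LCCTam minus SUM44, with 95% confidence intervals from limma) of 39 nuclear receptor genes at 1 probe set each, ordered from the largest increase; orange marks the ERR genes and filled points an adjusted p under 0.05. ESRRG at 2.10 stands apart from the next gene, RXRA, at 0.36, and ESR1 is lowest at -1.65.

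The genes with array profiles closest to that of ESRRG, among 295 genes with an absolute difference of at least 1, all rose in LCCTam. They were ARMCX3, which encodes a mitochondrial outer membrane protein (r = 0.995), LAMA4, a laminin chain (0.989), PTP4A1, a tyrosine phosphatase (0.987), CACNA1I, a T-type calcium channel subunit (0.982), and FGR, a SRC-family kinase (0.982). These r values over 6 arrays are dominated by the difference between the lines and are descriptions. Picking genes by their r to a gene that rose set the direction of their change. It also favoured separate lines and low adjusted p values, so none of these is a result about the 5 genes. ARMCX3 read 10.33, 10.63 and 11.06 in LCCTam and 9.16, 9.22 and 9.13 in SUM44, and differed by 1.50 (adjusted p = 0.00562). The lines did not overlap for this gene. FGR read 7.23, 7.90 and 7.67 in LCCTam and 5.32, 5.43 and 5.54 in SUM44, a difference of 2.17 (adjusted p = 0.00161). CACNA1I read 6.91, 7.51 and 7.62 in LCCTam and 5.81, 5.10 and 5.62 in SUM44 (adjusted p = 0.00852), while its other 2 probe sets differed by -0.11 and 0.16.

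**Figure D3:**
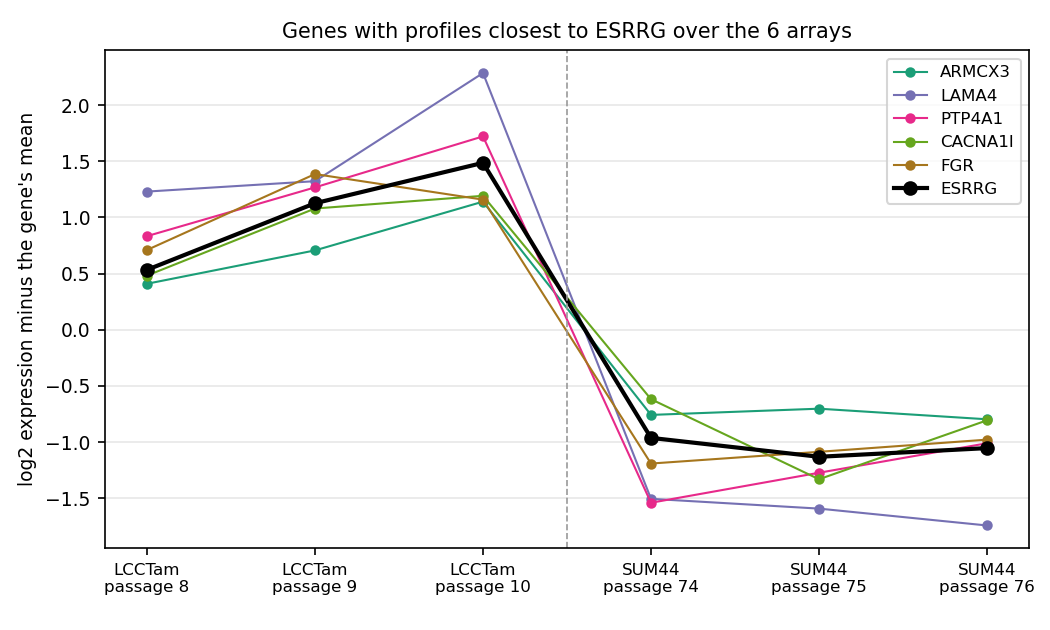
Log2 expression minus each gene's mean (vertical axis) on the 3 LCCTam arrays and the 3 SUM44 arrays for ESRRG (black, probe set 207981_s_at) and the 5 genes with the highest Pearson's r to it. All 6 genes lie above their mean on the LCCTam arrays and below it on the SUM44 arrays, which the choice by r favoured. Within LCCTam all are lowest at passage 8, which the choice by r to ESRRG also favoured.

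The nearest genes were read against the 7.56% of all genes that passed, a share near which 0 of 10 lies. No such share was taken for an unadjusted p under 0.05, so counts at that level, here and in the lists below, have no background. Of the 10 nearest measured genes around ESRRG on chromosome 1, 5 on each side, 0 passed in limma and 2 had an unadjusted p under 0.05, with differences between -0.50 and 0.68 and a median of -0.07. The largest was GPATCH2, the next measured gene on one side, named here after its values were seen: it read 7.12, 7.06 and 6.69 in LCCTam and 5.96, 6.35 and 6.50 in SUM44 (adjusted p = 0.0669). KCNK2, a potassium channel gene and the next on the other side, differed by -0.03. Around ESRRB on chromosome 14 and around ESRRA on chromosome 11, 0 of 10 genes passed in each case, and 0 and 2 had an unadjusted p under 0.05.

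Among coregulators of the ERRs, 5 genes fell and 0 rose. Of 22 listed, 17 were measured and 5 were not analysed here; 12 of the 17 did not pass. The 5 are 29.4%, beside 7.56% of all genes in either direction, 1.98% higher and 5.58% lower, so falls outnumbered rises over all genes too, and the split in the list was not tested. Their median difference was -0.20, against 0.02 for all genes, and the LCCTam values lay entirely below the SUM44 values for 8 of them, against 16.6% of all genes. The count rests on single arrays: it was 1 without LCCTam passage 8, 1 without SUM44 passage 75 and 8 without LCCTam passage 10. The 5 were NRIP1, NCOA2, SIRT1, TLE1 and RBPJ. The place of RBPJ among ERR coregulators is less sure than that of the others. In a count chosen after the data were seen that leaves it out, 4 of 16 fell (25%) and the median was -0.12.

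NRIP1 encodes RIP140, a repressor that binds nuclear receptors including the ERRs. It read 7.84, 7.85 and 8.01 in LCCTam and 8.50, 8.70 and 8.96 in SUM44, a difference of -0.82 (adjusted p = 0.0147). It lost the call without LCCTam passage 8 (0.0709), LCCTam passage 9 (0.0565) or SUM44 passage 75 (0.0781), and its other probe set differed by -0.83 without passing (0.0788). SIRT1, a deacetylase that acts on PGC-1 alpha, read 6.002, 5.95 and 5.91 in LCCTam and 6.61, 6.67 and 6.74 in SUM44. Its difference of -0.72 (adjusted p = 0.00439) kept its call in all 11 alternative settings. NCOA2, a p160 coactivator, differed by -0.76 (adjusted p = 0.0113), and its other 3 probe sets by -0.50 to -0.16 without passing. RBPJ, the DNA-binding factor of Notch signalling, differed by -1.28 on its brightest and -1.52 on its other probe set, both passing. NCOA2 and RBPJ lost the call without LCCTam passage 8 (adjusted p = 0.0583 and 0.0519) or SUM44 passage 75 (0.0704 and 0.0640).

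PPARGC1A, which encodes PGC-1 alpha, the main coactivator of the ERRs, is named after its values were seen. It read 4.46, 4.36 and 4.59 in LCCTam and 5.13, 5.19 and 4.77 in SUM44, with every LCCTam value below every SUM44 value. The difference of -0.56 (interval -0.87 to -0.25) had an adjusted p of 0.055 and did not pass, and the probe set was dim in both lines.

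**Figure D4:**
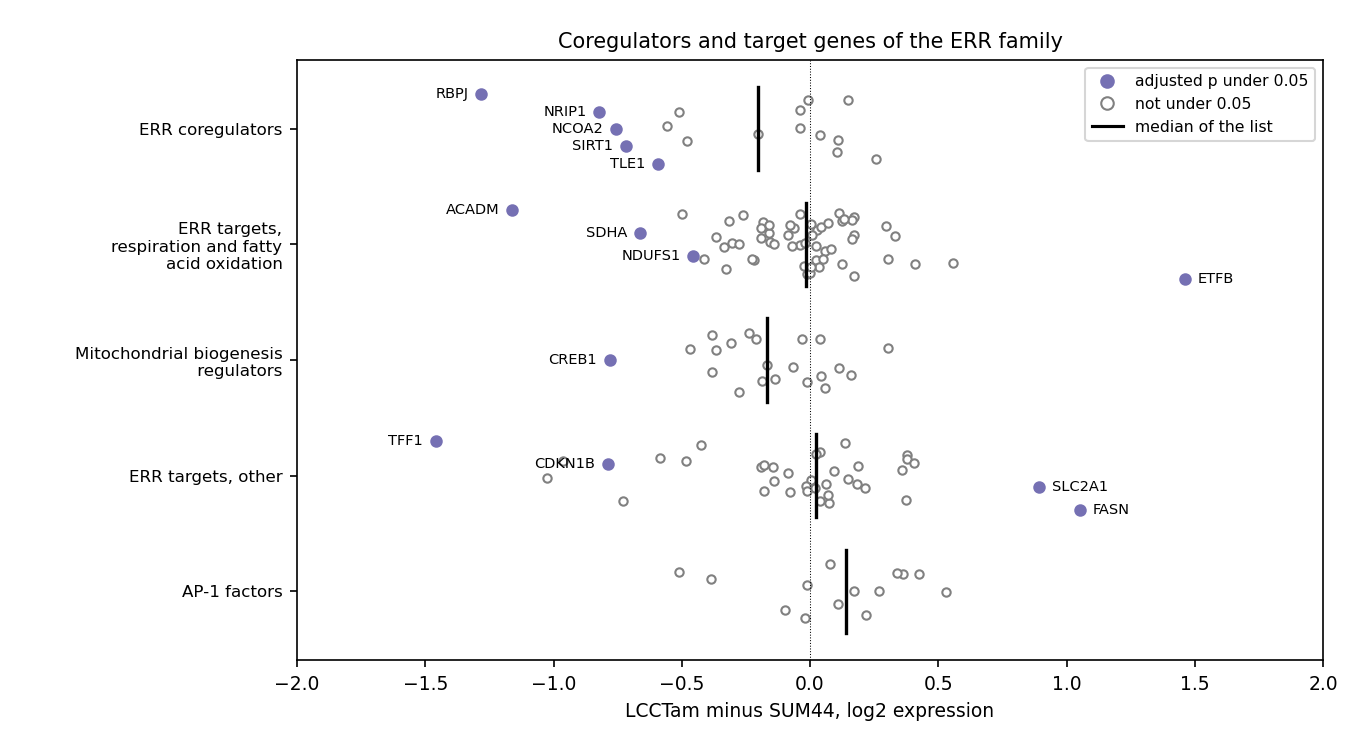
Differences in log2 expression (horizontal axis, LCCTam minus SUM44) of the measured genes of 5 lists around the ERR family, 1 probe set per gene; filled and named points have an adjusted p under 0.05 and black bars are list medians. The 5 coregulators that passed all lie below 0, and the respiration genes centre on -0.02.

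Among respiration and fatty acid oxidation genes, the best known ERR targets, the share passing was near that of all genes. Of 65 listed, 58 were measured, and 1 rose, 3 fell and 54 did not pass, or 6.90%, near the 7.56% of all genes, with a median of -0.02. An unadjusted p under 0.05 was reached by 15 of the 58. The LCCTam values lay entirely below the SUM44 values for 14 and entirely above them for 6. Over all 11963 genes the latter 2 counts were 1988 (16.6%) and 1582. No test of the list as a whole was made. The count was 2 without LCCTam passage 8 or 9 or SUM44 passage 75 or 76, and 8 (4 higher, 4 lower) without LCCTam passage 10. With quantile normalization it was 5 higher and 2 lower. With array weights it was 13 higher and 7 lower, in a fit where 6828 of all probe sets passed. ETFB and ACADM moved in opposite directions. ETFB, a subunit of the flavoprotein that takes electrons from acyl-CoA dehydrogenases, read 9.06, 8.80 and 8.89 in LCCTam and 7.13, 7.52 and 7.72 in SUM44, so it rose by 1.46 (2.75-fold, adjusted p = 0.00448). ACADM, one of those dehydrogenases, read 4.84, 4.69 and 4.97 in LCCTam, which are dim values, and 5.98, 5.97 and 6.04 in SUM44. Its difference was -1.16 (limma adjusted p = 0.00175). ETFB and ACADM kept their call and direction in every alternative setting in which they were fitted. SDHA, a subunit of succinate dehydrogenase, at -0.66 (adjusted p = 0.0395) and NDUFS1, of complex I, at -0.46 (0.0301) lost it in 5 and 6 of the 11. PDK4, a pyruvate dehydrogenase kinase gene and a classic ERR target, is named after its values were seen. It differed by 0.0075 at 4.02 to 4.15 in LCCTam and 4.05 to 4.13 in SUM44. The probe set was dim on every array, so these values do not tell whether PDK4 was expressed or changed.

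The promoters of these genes were searched in the same way. TNAAGGTCA was found in 1 of 63 windows of the respiration list (1.59%) and AAGGTCA in 6 (9.52%), beside 0.951% and 3.92% of all windows. For the list of other ERR targets the counts were 1 of 53 (1.89%) and 3 (5.66%). In the 29 coregulator windows both counts were 0. AGGTCA was in 17.5%, 15.1% and 3.45% of the windows of these 3 lists, beside 13.8% of all windows. For TGANTCA the shares were 1.59%, 7.55% and 6.9%, beside 7.71%. The estrogen response element was in 0 windows of each list. These are descriptions of the windows and were not tested.

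Regulators of mitochondrial biogenesis had 1 of 21 genes passing, 0 higher and 1 lower, or 4.76%, beside 7.56% of all genes, with a median of -0.17. An unadjusted p under 0.05 was reached by 8 of the 21. The LCCTam values lay entirely below the SUM44 values for 6, against 16.6% of all genes, and entirely above them for 2. The gene that passed is named next. This was CREB1, a cyclic AMP responsive factor, at -0.78 (adjusted p = 0.0104), and 3 of its 4 probe sets passed, all lower. The count passing was 0 without LCCTam passage 8 or SUM44 passage 75, where the adjusted p of CREB1 was 0.0513 and 0.0575. It was 4 without LCCTam passage 10. Of 14 AP-1 factors, at whose sites estrogen receptors and ERRs can act, 0 passed in limma and 2 had an unadjusted p under 0.05, ATF2 and FOSL2, beside 7.56% of all genes passing, so a count of 0 is near the background; without LCCTam passage 10 the count was 2 and with array weights 5. FOSL2, a FOS-related factor, differed by 0.53 (adjusted p = 0.114), and ATF2, named after its values were seen, by -0.51 (0.0713).

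Among other described ERR targets the share passing was near that of all genes. Their list includes ESRRA, itself a member of the family, which did not pass. Of 40 listed, 38 were measured, and 2 rose, 2 fell and 34 did not pass. The share was 10.5%, beside 7.56% of all genes (1.98% higher, 5.58% lower), with a median of 0.02. The count passing was 0 without SUM44 passage 75, 1 without LCCTam passage 8 and 2 without LCCTam passage 9. FASN, the fatty acid synthase gene, read 11.58, 11.17 and 10.89 in LCCTam and 10.07, 10.12 and 10.30 in SUM44 (adjusted p = 0.0179), while its other probe set differed by -0.01. The glucose transporter gene SLC2A1 rose by 0.89 (adjusted p = 0.0481), with 0.13 on its other probe set. Calls were lost in 4 of 11 alternative settings for SLC2A1 (adjusted p up to 0.177), in 3 for FASN (up to 0.0932) and in 2 for CDKN1B (up to 0.0707). CDKN1B, which encodes the cell cycle inhibitor p27, read 8.09, 8.48 and 8.19 in LCCTam and 9.01, 9.07 and 9.05 in SUM44 (adjusted p = 0.0115). TFF1, a trefoil factor gene that both estrogen receptor alpha and the ERRs can bind, read 10.29, 10.09 and 10.70 in LCCTam and 11.19, 12.07 and 12.20 in SUM44 (adjusted p = 0.0296). That call was lost without LCCTam passage 8 or 9 or SUM44 passage 75 or 76, with adjusted p between 0.0772 and 0.135.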

How the data were processed

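The deposited values are log2 expression on Affymetrix arrays, which the authors obtained by RMA in Bioconductor, per the design text. The RMA version and chip definition are not stated in the labels. Scan dates were not used, so an array batch and a line cannot be told apart. Of 22283 probe sets 68 controls were left out of the fits; 19065 had 1 symbol, updated by Entrez identifier with RefSeq (GRCh38.p14). The brightest probe set stood for a gene in lists. No probe set of the family was filtered out.

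Linear models (lmFit, eBayes; limma 3.58.1, R 4.3.3) compared the lines over all 22215 probe sets, with Benjamini-Hochberg adjustment and a threshold of 0.05. Simulated arrays of both lines, again with 22215 probe sets, were used to check the fit. Of 50 changed by 0.5 on the log2 scale it recovered 24%, of 50 changed by 1 it recovered 74%, and of 50 changed by 2 it recovered 98%. Differences near 0.5 were thus often missed in the simulation. It drew independent noise and gave 150 calls, against 1494 in the data, so the rates may differ there. Exact permutation tests used scipy 1.17.1. The number of arrays limits the precision.

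The members and lists were chosen with earlier results of these data known, and the lists come from general knowledge. Named genes were all members, ESR1, ESR2, PGR and TFF1, up to 4 passing members per list with the largest differences (or the largest difference where none passed), and the 5 genes most like ESRRG by r. TLE1 and others marked in the text were added after their values were seen. Alternatives left out each array, or used quantile normalization, array weights, a trended robust prior, a mean of at least 6, or 1 probe set per gene.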

Additional observations from a re-analysis of the deposited data

How the results depend on the processing

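The difference of ESRRG 207981_s_at kept its direction and its call in all 11 alternative settings and lay between 1.88 and 2.36 when 1 array was left out. ESRRG 209966_x_at kept its direction, at 0.97 to 1.32 without 1 array, and lost its call in 3 of those 6 fits. The ESRRB difference was 0.067 to 0.37 and that of ESRRA 203193_at 0.14 to 0.26 without 1 array. With array weights they were 0.0087 and 0.15, and neither passed in any setting. ESRRA 1487_at was -0.085 to 0.074 without 1 array, 0.10 with quantile normalization and 0.11 with array weights. ESRRG minus ESRRA shifts were 1.80 to 2.40 without 1 array and 0.98 on the dimmer probe sets.

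Probe sets passing numbered 1494, and 357 to 2398 without 1 array, 6828 (3310 higher) with array weights and 948 in the fit with 1 probe set per gene, which tests fewer features. Quantile normalization gave 727 higher and 967 lower, against 347 and 1147. Without 1 array the lists had 1 to 8 coregulators, 2 to 8 respiration genes, 0 to 4 biogenesis regulators, 0 to 4 other ERR targets, 1 to 4 nuclear receptors and 0 to 2 AP-1 factors passing. With array weights these were 11, 20, 12, 14, 12 and 5. In that fit LCCTam passage 8 had a weight of 5.70 and LCCTam passage 10 of 0.20. Quantile normalization gave 7 respiration genes and 5 nuclear receptors, and the trended robust prior 5 nuclear receptors. PGR was -0.0044 with quantile normalization and -0.024 to 0.016 without 1 array, and ESR2 -0.067 to 0.058 without 1 array. Leaving RBPJ out of the coregulators, chosen after seeing the data, gave 4. The causes were not tested. No paired analysis was possible because the lines share no passage number. With the background unknown, differences of dim probe sets such as ESRRB, PPARGC1A, PGR and PDK4 may be compressed.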
